A study of Mus musculus with 16 samples.

Results

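Nearly every mitochondrial protein is made in the cytosol and carried into the organelle, and the genes described here encode the machinery that does this and folds the arriving proteins. They were chosen by name from the deposited count table: every symbol that begins with Timm or Tomm followed by a digit, together with Hspd1, Hspe1, Hspa9, Grpel1, Grpel2, Pmpca, Pmpcb, Pam16, Dnajc19 and Chchd4, without rows marked as pseudogenes. The rule took 36 of the table's 54132 rows, and 32 of these had enough counts to be tested. The other 4, Tomm6, Tomm6os, Tomm20l and Timm8a2, had 0 to 18 counts in any library. All but Tomm6os, an antisense transcript opposite Tomm6, are annotated as protein-coding, and Tomm34 is a cytosolic cochaperone that carries the Tomm name but is no subunit of the gate.

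The study removed Rbpms, which encodes an RNA-binding protein, from heart muscle cells of mice. The knockout (cKO) mice carried Myh6-Cre, a Cre recombinase driven by a promoter active in cardiomyocytes, and floxed Rbpms alleles (Rbpms fl/fl). The control mice carried Rbpms fl/fl alone. No library used here came from mice with Cre alone, so loss of Rbpms and presence of Cre cannot be told apart. Ventricles were taken at 8 weeks of age from 4 cKO and 4 control animals or pools (the labels do not say which), each group with 3 male libraries and 1 female library, and newborn ventricles of the series were not analysed here. Nothing in the labels says that the libraries came from separate animals, so a p-value here speaks of library spread, which may be technical.

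A protein bound for the matrix is recognised by receptors of the TOM complex on the outer membrane, threaded through its Tomm40 channel, and passed to the TIM23 complex of the inner membrane. There a motor built around the chaperone encoded by Hspa9 pulls it inward, a peptidase clips off the targeting sequence, and the chaperonin of Hspd1 and Hspe1 folds it. Carrier proteins of the inner membrane instead travel with small Tim chaperones to the TIM22 complex, and small cysteine-rich proteins are trapped by the oxidative folding enzyme encoded by Chchd4. The heart, packed with mitochondria, relies on this traffic, and in humans loss of DNAJC19 causes a dilated cardiomyopathy with ataxia.

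Libraries held 20190334 to 24540433 counts, and levels are given as CPM (counts per 1000000, with library sizes scaled by TMM over the tested genes). Rbpms measured 38.8, 34.5, 27.1 and 26.9 CPM in cKO libraries, against 190.6, 153.5, 193 and 101.6 CPM in control libraries, and no cKO library reached the lowest control (log2 fold change -2.33, adjusted p = 3.54e-05). Of all 16051 tested genes, edgeR's quasi-likelihood test with Benjamini-Hochberg adjustment called 1548 higher and 1547 lower in cKO libraries (threshold 0.05), which is 19.3% of genes, 9.64% in each direction. With total counts as the only scaling these numbers were 1992 and 1021. The cardiomyocyte markers Myh6, Tnnt2, Tnni3, Actn2, Ryr2 and Myl2 were abundant in both groups, with a summed level of 24725 to 29875 CPM in cKO libraries and 29540 to 38801 CPM in control libraries. All 6 had negative log2 fold changes, with a median of -0.27, and 2 of these 6 fell (Ryr2 and Tnni3). All 7 fibroblast markers rose, with a summed level of 2455 to 3021 CPM in cKO libraries against 1211 to 1467 CPM in control libraries. Of 6 endothelial and 6 macrophage markers 0 passed (0 and 2 at an unadjusted p under 0.05 in edgeR). All 6 macrophage markers had positive log2 fold changes, with a median of 0.26. Of the endothelial markers 4 were negative and 2 positive, with a median of -0.08. Of 6 smooth muscle and pericyte markers Cspg4 rose and Kcnj8 fell. In RNA of whole ventricle, fewer cells of a type and less RNA per cell cannot be told apart, and the part of these markers in the results below was not tested.

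Import and folding genes spanned a wide range of levels in the ventricle. Scaled by annotated exon length, Hspa9, the matrix chaperone also called mortalin, stood at 211 CPM per kilobase averaged over the 8 libraries. Hspd1, the large chaperonin subunit, followed with 144, then the small Tim chaperone Timm8b with 81.4, the small gate subunit Tomm5 with 56.1 and the chaperonin lid Hspe1 with 50.2 CPM per kilobase. The next 6 in order, from Tomm7 at 34.7 to Timm10 at 31.1 CPM per kilobase, lay close together and their order is not resolved. At the low end of the tested genes stood Tomm40l at 2.59, Timm10b at 1.64 and Pam16 at 1.18 CPM per kilobase. The length counts every annotated exon base of a gene, whichever transcripts the ventricle makes, so levels per kilobase are approximate.

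Some of these levels are uncertain because the counted genes share sequence with others, and the treatment of reads with several alignments is not given in the sources used here. Of the 50-base words in Timm23 transcripts, 57.5% also occur in transcripts of other genes, such as the copy Gm10273, which shares 54.5% of them. The share was 41.0% for Timm8a1, 39.7% for Hspd1 (mostly with Hspd1-ps3, at 55 to 124 counts per library) and 18.4% for Hspe1. For Pam16, 485 of 2428 words were shared with Gm9803, at 3 to 20 counts against 33 to 92 for Pam16. Tomm6 shared 69.1% of its words with other genes and 76.0% of its exon bases with Gm21981, a gene on the same strand, and Tomm6 itself had 0 to 4 counts per library. Its level is uncertain for that reason, and near 0 as counted.

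**Figure D1:**
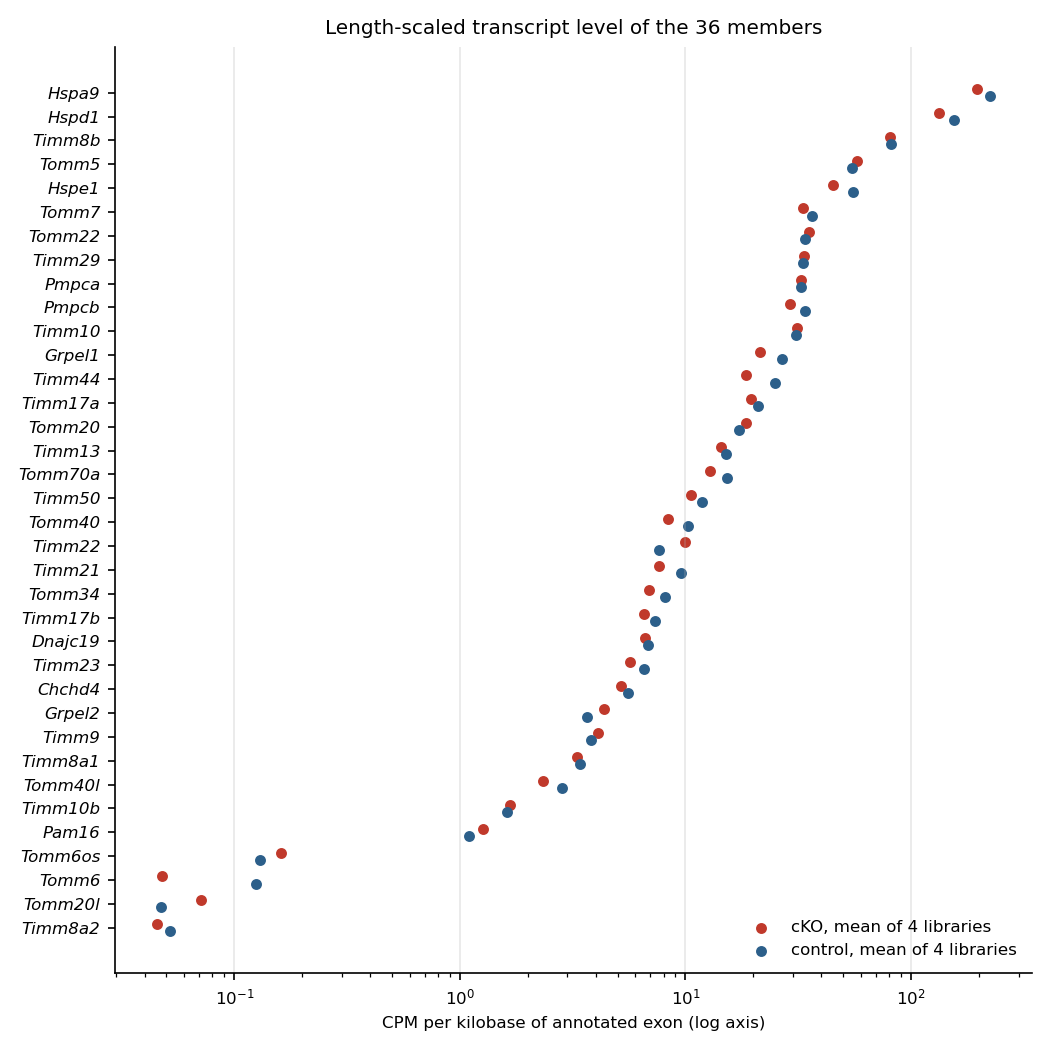
Length-scaled level of the 36 import and folding genes, in CPM per kilobase of annotated exon on a log axis, with the mean of the 4 cKO libraries in red and of the 4 control libraries in blue. Hspa9 and Hspd1 lead, and Tomm6os, Tomm6, Tomm20l and Timm8a2 lie below 1 in both groups.

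Differences between cKO and control ventricles were small across this machinery. Of the 32 tested genes, 1 rose (Timm22) and 4 fell (Timm44, Tomm70a, Grpel1 and Hspe1), or 15.6%, against the background of 19.3% of all tested genes. This share is near the background and is not a result about the list, and at an unadjusted p under 0.05 the count was 13 of 32, against 31.5% of all tested genes. With total counts as the only scaling 2 rose (Timm22 and Grpel2) and 1 fell (Timm44). The median log2 fold change of the 32 was -0.10, beside 0.01 for all tested genes, and 21 of the 32 values were negative. With total counts only the median was -0.02, beside 0.09 for all tested genes, and 17 of the 32 were negative. The CPM values of the groups did not overlap for 28.1% of the 32 genes, against 23.5% of all tested genes. Of the 32, 8 were lower and 1 higher in cKO libraries, against 11.8% of all tested genes in each direction. For 28 of the 32 the 95% interval of the change lay inside a 1.5-fold change either way, the exceptions being Timm44, Timm22, Timm21 and Pam16. Leaving out any 1 library put the number that fell between 1 and 5 and the number that rose between 0 and 1, with 1 that fell and 0 that rose without cKO replicate 1, 2 or 3 or control replicate 2 or 3. Timm44 passed in each of the 19 alternative fits, while the other 4 calls were each lost in 8 to 10 of them, among these the fit of males only.

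**Figure D2:**
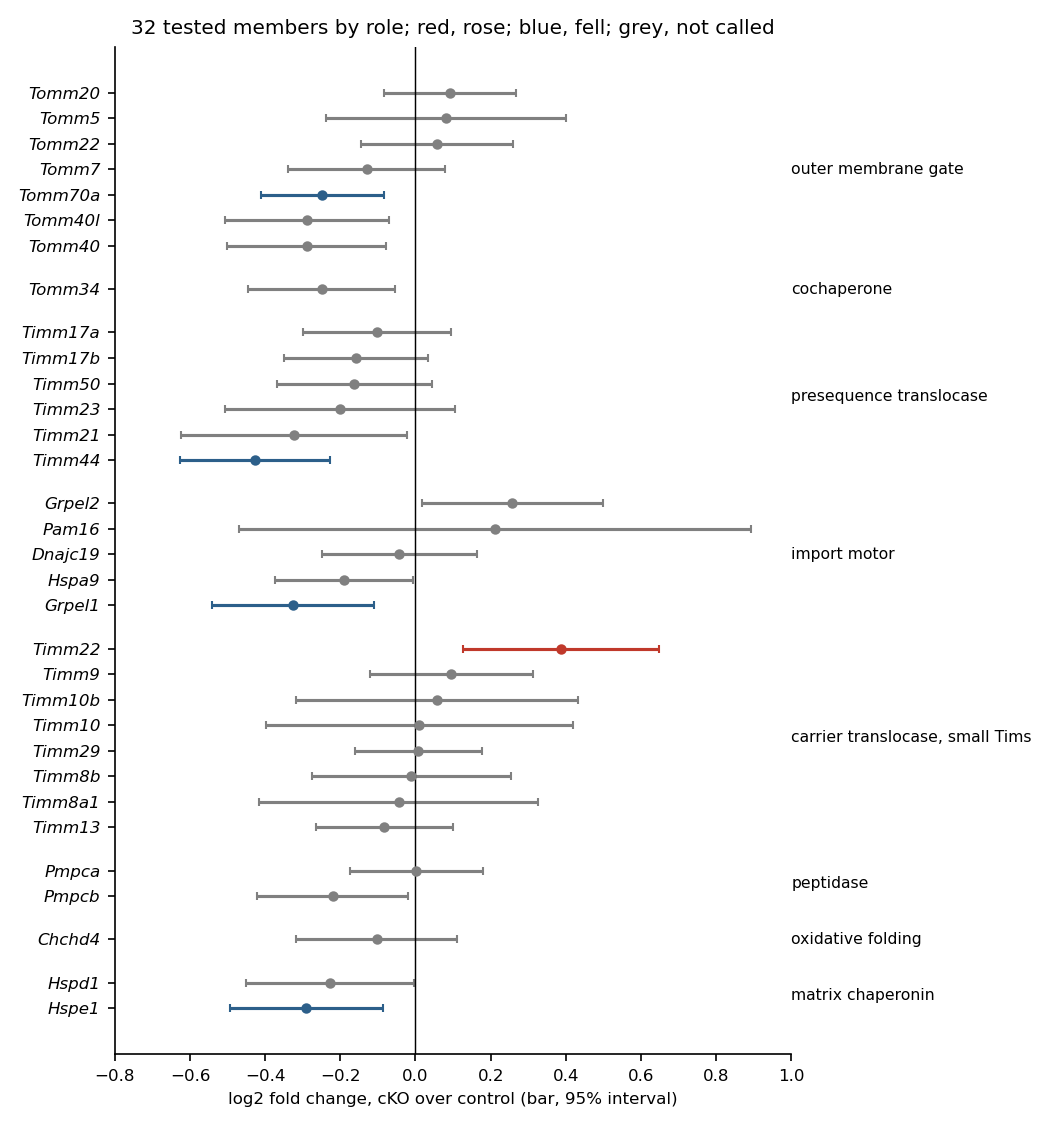
Log2 fold change of each tested gene, cKO over control, with its 95% interval, grouped by role, with genes that rose in red, genes that fell in blue and the others in grey. Timm22 lies to the right at 0.39 and Timm44 to the left at -0.43, and most other genes lie between these values with intervals that cross or touch 0.

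The outer membrane gate had 7 tested subunits, of which 1 fell (14.3%, against 9.64% of all tested genes) and 0 rose. Tomm70a, a receptor that docks cytosolic chaperones carrying carrier proteins, measured 127, 117, 123 and 136 CPM in cKO libraries, against 139.6, 156, 154 and 148 CPM in control libraries. No cKO library reached the lowest control library. Tomm70a fell 1.19-fold, a log2 fold change of -0.25 ± 0.07 (SE; edgeR quasi-likelihood, adjusted p = 0.0374). The call was lost without cKO replicate 1, 2 or 3 or control replicate 2, 3 or 4, with adjusted p of 0.0521 to 0.111, and with total counts only (0.204). Tomm40, the channel itself, measured 33.6, 39.4, 36.8 and 41.2 CPM in cKO libraries, against 41.9, 43.6, 45.6 and 53.4 CPM in control libraries. The groups again did not overlap, but the log2 fold change of -0.29 ± 0.10 (SE) missed the threshold (adjusted p = 0.0569), and it passed with DESeq2 (0.0401). Tomm40l, a paralog of the channel, measured 11.2, 11.6, 12.5 and 12.6 CPM in cKO libraries, against 16.0, 13.9, 14.8 and 13.7 CPM in control libraries, and did not pass (log2 fold change -0.29, adjusted p = 0.0662). Of its annotated exon bases, 64.3% overlap Nr1i3 on the opposite strand, and the strand setting of the counting is not given in the sources used here.

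The presequence receptors Tomm20 and Tomm22 and the small subunit Tomm5 had values on the other side of 0. Their log2 fold changes were 0.09, 0.06 and 0.08, and none passed. Tomm5 measured 44.8, 45.1, 47.2 and 63.1 CPM in cKO libraries, against 35.2, 47.2, 54.8 and 52.0 CPM in control libraries, so the groups overlapped, with cKO replicate 4 above every control and control replicate 1 below every cKO library. Tomm7, another small subunit, had -0.13, with a 95% interval of -0.34 to 0.08. The cytosolic cochaperone Tomm34 lay between 20.7 and 21.1 CPM in cKO libraries and between 21.6 and 27.0 CPM in control libraries, and its log2 fold change of -0.25 did not pass (adjusted p = 0.0747; 0.0256 without control replicate 4).

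In the presequence translocase of the inner membrane all 6 log2 fold changes were negative (49.4% of all tested genes were), and 1 gene fell, or 16.7% against 9.64% of all tested genes. The summed level of the 6 genes was 301, 310.0, 293 and 319 CPM in cKO libraries, against 329, 356, 354 and 379 CPM in control libraries, so the groups did not overlap. The summed level of the import motor did not overlap either (965 to 1008 CPM in cKO libraries, 1013 to 1257 CPM in control libraries), and those of the gate, the carrier branch, the peptidase and the chaperonin did. Most of the motor sum came from Hspa9, which was not called. Its mean was 849 of 984 CPM in cKO libraries and 969 of 1118 CPM in control libraries. With total counts only, a scaling of these sums added after seeing the data, the sums overlapped for all of these roles, with 302.5 to 331 in cKO libraries and 324 to 360.5 in control libraries for the translocase. Timm44, the peripheral protein that anchors the motor to the channel, measured 65.7, 68.1, 59.5 and 78.8 CPM in cKO libraries, against 87.5, 95.7, 95.9 and 86.9 CPM in control libraries. The highest cKO library stayed below the lowest control library. Timm44 fell 1.35-fold, a log2 fold change of -0.43 ± 0.09 (SE; 95% interval -0.63 to -0.23, adjusted p = 0.00671). Over all alternatives its log2 fold change ran from -0.51 to -0.34 and its adjusted p from 1.93e-04 to 0.034.

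The core subunits did not pass. Timm17a, which lines the channel with Timm23, measured 150.2, 161, 153 and 152 CPM in cKO libraries, against 148, 166, 153 and 194 CPM in control libraries. Its paralog Timm17b had far lower CPM and measured 17.2, 17.6, 15.2 and 17.2 CPM in cKO libraries, against 18.7, 18.4, 19.7 and 18.1 CPM in control libraries. Scaled by exon length the gap was smaller, with 20.2 CPM per kilobase for Timm17a and 6.94 for Timm17b over all libraries. The Timm17b groups did not overlap while those of Timm17a did, and the log2 fold changes were -0.16 for Timm17b and -0.10 for Timm17a. Timm50, the receptor of the complex, had -0.16, the channel gene Timm23 had -0.20, and Timm21, which links the complex to the gate, had -0.32 with a wide 95% interval of -0.62 to -0.02 (adjusted p = 0.129).

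The import motor drew values in both directions, with 1 of 5 genes called, or 20% against 19.3% of all tested genes. Hspa9 measured 858, 837, 838 and 864 CPM in cKO libraries, against 886, 925, 1105 and 959 CPM in control libraries. The cKO libraries were close together and all lay below the controls, but the log2 fold change of -0.19 ± 0.08 (SE) did not pass (adjusted p = 0.145). Grpel1, the nucleotide exchange factor that resets the chaperone, measured 74.1, 70.9, 70.8 and 86.6 CPM in cKO libraries, against 80.3, 96.5, 97.5 and 105 CPM in control libraries. Only control replicate 1 fell within the cKO range. Grpel1 fell by 20.2%, a log2 fold change of -0.33 ± 0.10 (SE; adjusted p = 0.038). It was not called without cKO replicate 1, 2 or 3 or control replicate 2, 3 or 4 (adjusted p = 0.0686 to 0.1), or with total counts only (0.117).

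Grpel2, the second exchange factor, had a positive value. It measured 30.3, 26.2, 31.5 and 29.8 CPM in cKO libraries, against 20.3, 26.1, 23.5 and 28.7 CPM in control libraries. The log2 fold change of 0.26 ± 0.11 (SE) did not pass (adjusted p = 0.131), and it passed with total counts only (0.0452). Pam16 and Dnajc19, which govern the chaperone's ATP cycle, had log2 fold changes of 0.21 and -0.04, and Pam16, at 33 to 92 counts per library, had the widest 95% interval of the 32 genes (-0.47 to 0.89).

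The ratio of Grpel2 to Grpel1 counts within a library does not depend on scaling. Its log2 value was -1.29, -1.44, -1.17 and -1.54 in cKO libraries, against -1.98, -1.89, -2.05 and -1.87 in control libraries, so the groups did not overlap. The mean ratio was 0.39 in cKO libraries and 0.26 in control libraries, a log2 difference of 0.59 (exact two-sided permutation p = 0.0286, the smallest that 4 against 4 libraries can give). Adjusted over the 7 pairs compared it did not pass (adjusted p = 0.2), a value that also depends on the p of the other pairs. With 4 against 4 libraries no pair could pass this adjustment by itself, however far apart its groups. Missing the threshold therefore decides nothing about this ratio.

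**Figure D3:**
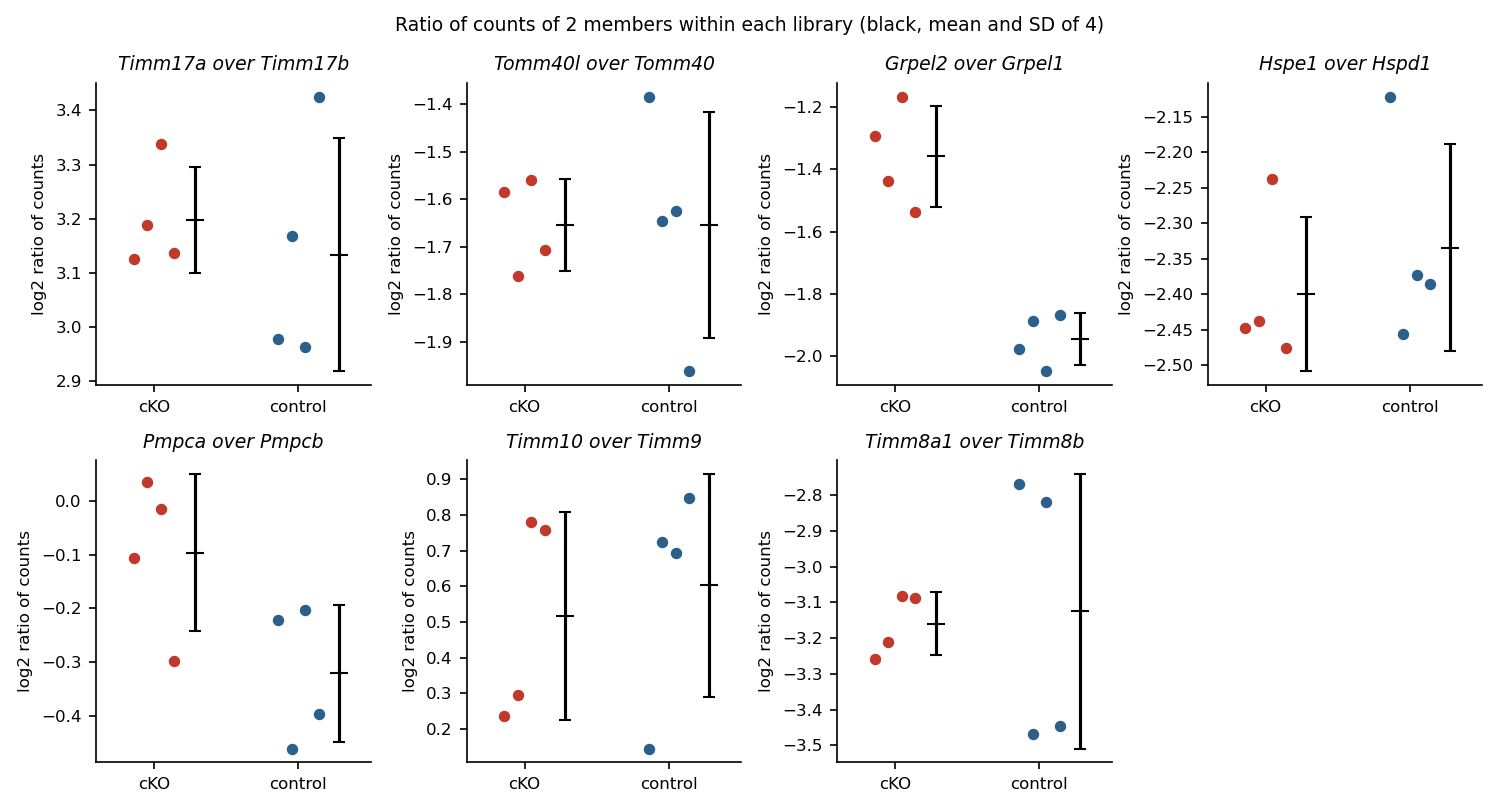
Log2 ratio of the counts of 2 genes within each library for the 7 pairs compared, with cKO libraries in red, control libraries in blue and the mean and SD of 4 in black. The groups are apart for Grpel2 over Grpel1, at -1.54 to -1.17 in cKO libraries and -2.05 to -1.87 in control libraries, and overlap in the other 6 pairs.

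The other 6 pairs overlapped between groups, with log2 differences of 0.06 for Timm17a over Timm17b, 0.00 for Tomm40l over Tomm40, -0.07 for Hspe1 over Hspd1, 0.22 for Pmpca over Pmpcb, -0.08 for Timm10 over Timm9 and -0.03 for Timm8a1 over Timm8b. Their exact permutation p lay between 0.0857 and 0.971.

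The carrier branch held the gene that rose. Timm22, the insertase that places carrier proteins in the inner membrane, measured 31.9, 30.5, 31.3 and 33.6 CPM in cKO libraries, against 19.8, 25.03, 22.2 and 30.4 CPM in control libraries. All cKO libraries lay above all control libraries, with control replicate 4 just below the lowest cKO library. Timm22 rose 1.31-fold, a log2 fold change of 0.39 ± 0.12 (SE; 95% interval 0.13 to 0.65, adjusted p = 0.0402). The call was lost without any 1 of the libraries other than control replicate 4 (adjusted p = 0.0634 to 0.103), and without control replicate 4 the log2 fold change was 0.51 (adjusted p = 0.00542). Timm29, its partner in the same complex, lay between 103 and 108 CPM in cKO libraries and between 96.2 and 118 CPM in control libraries, and its log2 fold change of 0.01 had a 95% interval of -0.16 to 0.18.

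None of the 6 tested small Tim chaperones passed. Timm8b measured 39.0, 44.9, 39.0 and 45.1 CPM in cKO libraries, against 31.9, 47.5, 43.2 and 46.9 CPM in control libraries, and the groups overlapped. Timm8a1, its relative, measured 4.06, 4.83, 4.59 and 5.29 CPM in cKO libraries, against 4.67, 4.26, 6.10 and 4.29 CPM in control libraries. Timm9 and Timm10 form a ring that shields carrier proteins in the intermembrane space. Timm9 measured 18.3, 15.8, 16.7 and 19.0 CPM in cKO libraries, against 15.4, 17.3, 17.5 and 15.1 CPM in control libraries. Timm10 measured 21.6, 19.4, 28.6 and 32.2 CPM in cKO libraries, against 17.0, 28.6, 28.3 and 27.2 CPM in control libraries. The groups overlapped for all 3 of these genes. The log2 fold changes of the 6 genes ran from -0.08 for Timm13 to 0.10 for Timm9, and the widest of their 95% intervals, that of Timm10, was -0.40 to 0.42.

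The presequence peptidase removes targeting sequences with a catalytic beta subunit and a substrate-binding alpha subunit. The beta subunit gene Pmpcb measured 147, 143, 139.9 and 168 CPM in cKO libraries, against 148, 183, 183 and 182 CPM in control libraries. Its log2 fold change of -0.22 did not pass (adjusted p = 0.123), and it passed without control replicate 1, the low control (-0.29, adjusted p = 0.0385). The alpha subunit gene Pmpca measured 137, 146, 138 and 137 CPM in cKO libraries, against 127, 133, 159 and 138 CPM in control libraries, with a log2 fold change of 0.00 (95% interval -0.18 to 0.18). Chchd4, at 23.9 to 30.5 CPM in cKO libraries and 25.3 to 31.1 CPM in control libraries, had a log2 fold change of -0.10 and did not pass.

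In the matrix chaperonin the lid gene Hspe1 fell and the barrel gene Hspd1 did not pass. Hspe1 measured 62.3, 61.1, 71.6 and 71.3 CPM in cKO libraries, against 82.0, 76.3, 93.2 and 74.0 CPM in control libraries, with no overlap. Hspe1 fell 1.22-fold, a log2 fold change of -0.29 ± 0.09 (SE; adjusted p = 0.0481). The call was lost without any 1 of the libraries other than control replicate 4 (adjusted p = 0.0524 to 0.136), and with total counts only (0.198). Hspd1 measured 340.0, 331, 338 and 396 CPM in cKO libraries, against 357, 419, 483 and 387 CPM in control libraries. The highest cKO library lay inside the control range, and the log2 fold change of -0.23 missed the threshold (adjusted p = 0.151), while the ratio of Hspe1 to Hspd1 differed between the groups by less than its spread within them.

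**Figure D4:**
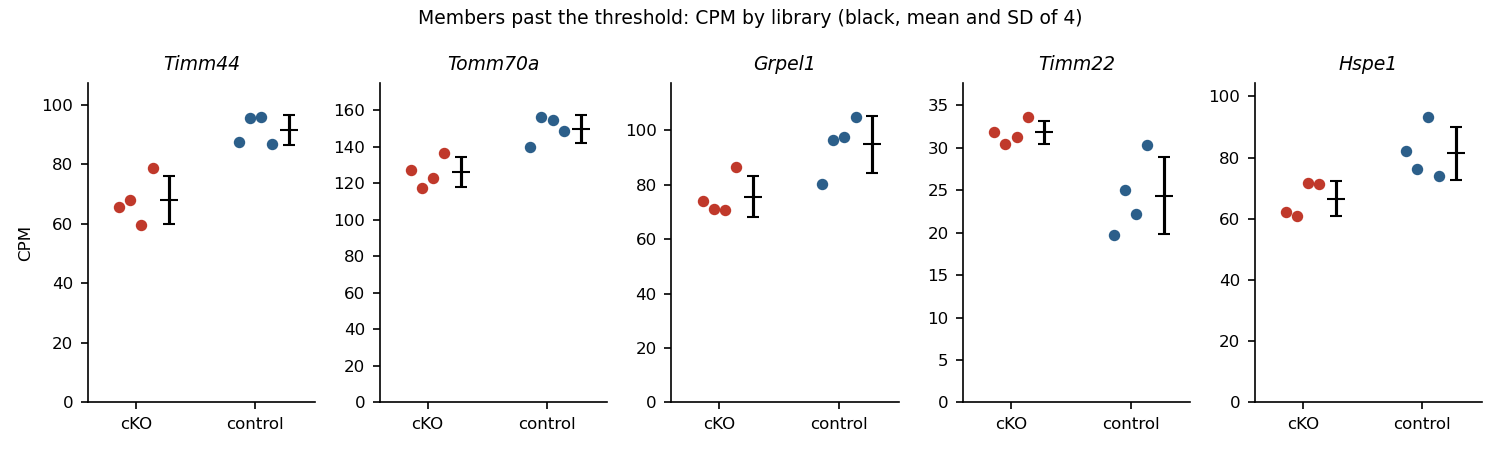
CPM of the 5 genes past the threshold in each library, with cKO libraries in red, control libraries in blue and the mean and SD of 4 in black. The groups do not overlap for Timm44, Tomm70a, Timm22 and Hspe1, and for Grpel1 control replicate 1 lies within the cKO range.

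Levels varied between libraries of the same group across many of these genes at once. Control replicate 1 was the lowest of all 8 libraries for 11 of the 32 genes, among them Timm22, Timm10 and Timm8b, and control replicate 3 the highest for 9. Without control replicate 1 the median log2 fold change of the 32 was -0.16, with 5 genes that fell and 0 that rose. Control replicate 4 had the largest share of counts from mitochondrially encoded genes, 11.8%, against 8.04% to 9.30% in cKO libraries and 8.95% to 10.1% in the other controls. The 36 genes held 0.267% to 0.297% of counts in cKO libraries and 0.267% to 0.322% in control libraries.

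**Figure D5:**
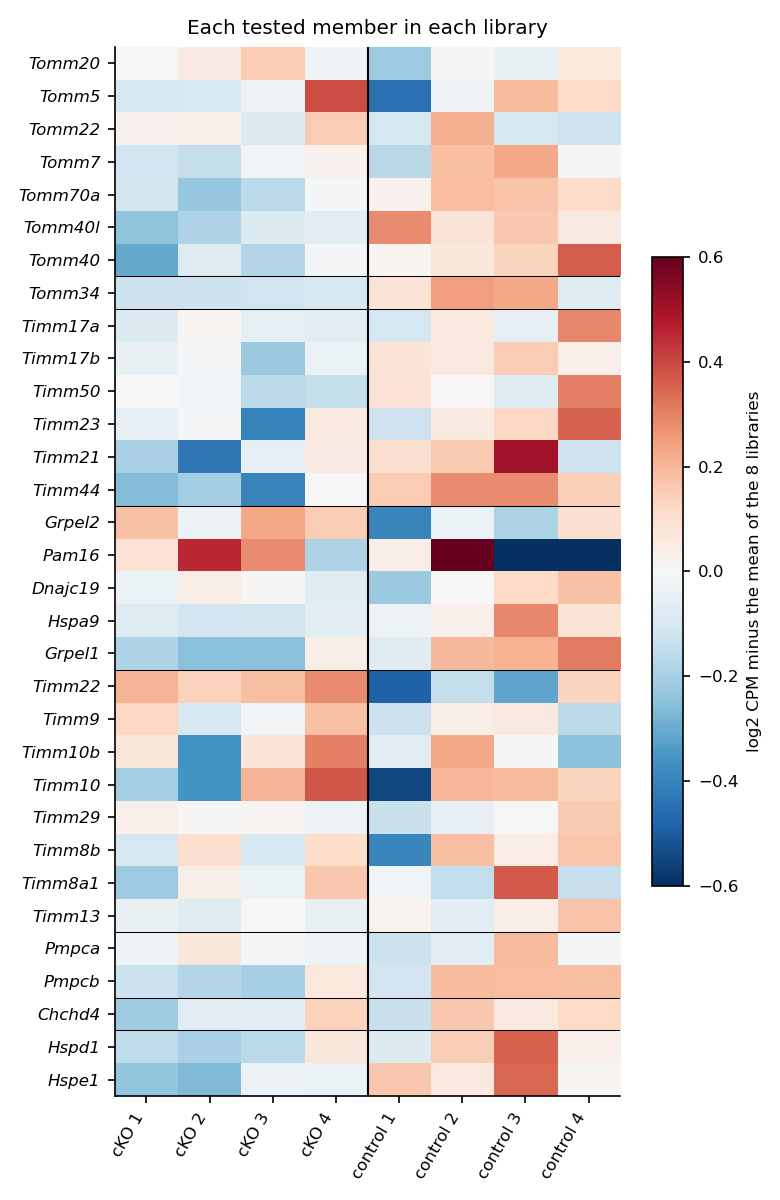
Log2 CPM of each of the 32 tested genes in each library, minus its mean over the 8 libraries, with genes ordered by role and colours limited at 0.6, which Pam16 exceeds in 3 libraries. Control replicate 1 is low for many genes of the carrier branch, and Timm44 is lower in all 4 cKO libraries than in any control library.

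Promoters of the 5 called genes are shown because these are the members whose level passed the test. The windows, from RefSeq (GRCm38.p6), run from 250 bases before to 50 bases after an annotated start, 5′ to 3′ on the gene's strand, and 31 of the 36 genes had such a window (34 windows), all but Grpel2, Hspa9, Timm21, Tomm40l and Tomm7. Capitals mark letters that match any of 6 motifs on either strand: TGCGCA (one side of the NRF1 palindrome), CCGGAAG (an ETS site of the kind bound by GABP), AAGGTCA (core of the ERR site), TGATGCA (start of the ATF4 and CHOP composite element), GAANNTTC (a heat shock element unit) and CCAAT (the NF-Y box).
Timm44 promoter, chr8:4275856-4276155, - strand: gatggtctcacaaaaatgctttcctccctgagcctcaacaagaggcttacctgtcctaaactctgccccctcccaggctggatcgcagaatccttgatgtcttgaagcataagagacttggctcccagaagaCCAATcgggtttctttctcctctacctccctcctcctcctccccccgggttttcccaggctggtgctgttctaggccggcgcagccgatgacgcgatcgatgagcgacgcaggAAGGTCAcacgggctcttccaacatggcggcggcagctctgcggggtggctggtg
Tomm70a promoter, chr16:57121464-57121763, + strand: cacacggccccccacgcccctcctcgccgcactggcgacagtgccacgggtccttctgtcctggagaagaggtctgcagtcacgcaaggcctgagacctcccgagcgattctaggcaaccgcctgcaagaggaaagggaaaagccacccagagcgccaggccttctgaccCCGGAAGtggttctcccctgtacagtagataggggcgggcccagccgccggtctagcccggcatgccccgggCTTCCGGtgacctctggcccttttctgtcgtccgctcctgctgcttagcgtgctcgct
Grpel1 promoter, chr5:36464935-36465234, + strand: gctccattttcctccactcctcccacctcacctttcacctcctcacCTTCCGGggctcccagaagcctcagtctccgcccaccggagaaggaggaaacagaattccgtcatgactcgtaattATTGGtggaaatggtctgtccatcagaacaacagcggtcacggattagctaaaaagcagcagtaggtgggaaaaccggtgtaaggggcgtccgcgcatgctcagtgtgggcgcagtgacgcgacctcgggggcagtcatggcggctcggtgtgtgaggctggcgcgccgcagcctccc
Hspe1 promoter, chr1:55087898-55088197, + strand: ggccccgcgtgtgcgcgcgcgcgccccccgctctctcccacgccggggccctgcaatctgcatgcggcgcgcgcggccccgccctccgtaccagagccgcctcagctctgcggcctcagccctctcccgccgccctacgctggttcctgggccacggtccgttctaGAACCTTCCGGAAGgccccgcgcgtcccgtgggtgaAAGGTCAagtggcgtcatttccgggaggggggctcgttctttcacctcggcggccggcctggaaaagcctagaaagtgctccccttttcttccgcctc
Timm22 promoter, chr11:76406675-76406974, + strand: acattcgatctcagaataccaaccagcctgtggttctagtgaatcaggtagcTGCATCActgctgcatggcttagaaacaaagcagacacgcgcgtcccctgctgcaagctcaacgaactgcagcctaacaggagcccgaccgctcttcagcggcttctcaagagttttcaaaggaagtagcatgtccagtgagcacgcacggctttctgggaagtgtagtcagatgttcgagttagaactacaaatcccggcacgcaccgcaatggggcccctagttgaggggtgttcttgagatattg

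The genes themselves lie at chr8:4259731-4275913 (Timm44), chr16:57121703-57156705 (Tomm70a), chr5:36464998-36474080 (Grpel1) and chr11:76406952-76416292 (Timm22), in GENCODE M21 on GRCm38. Hspe1 and Hspd1 are transcribed head to head on chromosome 1, Hspe1 at 55088132 to 55091307 on the plus strand and Hspd1 at 55077835 to 55088243 on the minus strand. The Hspe1 window above shares 285 of its 300 bases with 1 of the 2 Hspd1 windows, read from the other strand. It holds overlapping ETS letters 80 and 77 bases before the Hspe1 start, a heat shock element unit 84 bases before it, whose letters run into those of the ETS site, and the ERR core 48 bases before it. The ERR core also stood 5 bases before the Timm44 start, ETS letters 80 and 8 bases before the Tomm70a start and 204 bases before the Grpel1 start. Timm22 held TGATGCA, only the start of the ATF4 and CHOP element, in both of its windows, 198 bases before the start in the one shown. The rest of that element was not searched for, so these letters do not show the whole element. That Timm22 window held none of the other 5 motifs.

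Across the 34 windows the ETS letters were found in 15 (44.1%, 14 genes), against 8.86% of all 32851 RefSeq windows of this length and 11.6% of those of protein-coding genes. The ERR core was found in 14.7% of the member windows, against 4.72% of all windows and 4.08% of protein-coding ones. For the NRF1 letters these shares were 17.6%, 7.76% and 9.74%. In the same order they were 5.88% (Timm22 alone), 3.15% and 2.78% for the ATF4 and CHOP letters. They were 8.82%, 7.86% and 7.21% for the heat shock unit, and 29.4%, 37.4% and 38.2% for the NF-Y box. Windows of 1 gene or of the Hspd1 and Hspe1 pair overlap and are not independent. A match of letters is a description of the sequence and does not show a bound site.

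Genes that act beside the import machinery were taken from lists by function. These lists were chosen with earlier results of these data known, so the shares below describe them and test nothing. Of 7 genes for assembly and insertion in the outer membrane 1 fell, or 14.3% against 9.64% of all tested genes. This was Mtch2, an insertase of that membrane, with 146 ± 4.41 CPM in cKO libraries and 171 ± 3.05 CPM in control libraries (SD, n = 4 each). Of 12 genes for other steps of import and maturation 7 fell and 0 rose, or 58.3% fell, against 9.64% of all tested genes. Oxa1l, the insertase that places matrix-side proteins into the inner membrane, measured 63.5 ± 3.88 CPM in cKO libraries and 95.1 ± 10.3 CPM in control libraries, a log2 fold change of -0.58 (adjusted p = 9.7e-04). Agk, a lipid kinase that is also a subunit of the TIM22 complex, measured 13.0 ± 0.72 CPM in cKO libraries and 19.4 ± 3.22 CPM in control libraries (log2 fold change -0.57, adjusted p = 0.00685). Mipep, which trims precursors after the presequence peptidase, and Timmdc1, an assembly factor of respiratory complex I, fell with log2 fold changes of -0.36 and -0.37.

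Of 15 chaperone and protease genes of the matrix and inner membrane 7 fell and 0 rose, or 46.7% fell, against 9.64% of all tested genes. Clpp and Clpx, which encode the proteolytic and unfolding parts of one matrix protease, measured 22.6 ± 1.35 and 109.9 ± 1.76 CPM in cKO libraries, against 34.6 ± 3.08 and 158 ± 19.1 CPM in control libraries. Their log2 fold changes were -0.61 (adjusted p = 7.09e-04) and -0.52 (adjusted p = 0.00167). Oma1, a stress-activated protease of the inner membrane, and Phb, a prohibitin scaffold subunit, fell with -0.46 and -0.42. The medians of these 2 lists, -0.34 for import and maturation and -0.27 for chaperones and proteases, lay further below 0 than the -0.10 of the 32 import and folding genes, and the difference between lists was not tested. The counts of genes that fell in these 2 lists are from the main fit only. With total counts only, 1021 of all tested genes fell, against 1547 in the main fit.

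Of 8 regulators linked to mitochondrial stress or biogenesis, 1 rose and 1 fell, or 12.5% each way, against 9.64% of all tested genes in each direction. Atf4, a transcription factor of the integrated stress response, measured 70.3, 69.1, 76.1 and 83.1 CPM in cKO libraries, against 57.1, 61.6, 61.3 and 38.5 CPM in control libraries (log2 fold change 0.45, adjusted p = 0.0361). Ppargc1a, a coactivator of mitochondrial biogenesis, measured 179, 167, 157 and 136 CPM in cKO libraries, against 189, 202, 243 and 189 CPM in control libraries (log2 fold change -0.37, adjusted p = 0.0325). For both genes the groups did not overlap. The Atf4 call was lost without cKO replicate 1, 3 or 4 or control replicate 1 (adjusted p = 0.0585 to 0.0904). The Ppargc1a call was lost without cKO replicate 2, 3 or 4 or control replicate 2 or 3 (0.0547 to 0.0859), with total counts only (0.103) and in males only (0.127). The other 6 regulators, Atf5, Ddit3, Nrf1, Gabpa, Esrra and Hsf1, had log2 fold changes of -0.20 to 0.15 and did not pass.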

How the data were processed

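The data are whole-number read counts per gene symbol from stranded mRNA libraries of mouse heart ventricle, per the labels' protocols. The authors deposited these counts unnormalised; builds (mm10, GRCm38) and tools (edgeR 3.30.3, featureCounts 1.6.0, HISAT2 2.0.4, FastQC 0.11.4) are listed without roles, per the submitters' processing notes. Not given in the sources used here: strand setting, annotation and treatment of multi-mapped reads. The table has 54132 rows in 8 columns, matched by name to labels; 24 rows without a symbol (0.115% to 0.132% of counts) were left out.

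Main test: edgeR 4.0.16 quasi-likelihood (R 4.3.3), genotype only, TMM, filterByExpr, Benjamini-Hochberg adjustment over 16051 genes, two-sided, threshold 0.05. Each SE is the size of the log2 fold change divided by the root of F. Lengths and positions are from GENCODE M21, matched by symbol (97.7%). The fit was tested on simulated data. Pair ratios used counts plus 0.5.

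Members and lists were chosen with earlier results of these data known. Every member is described by role; values for each library are given for called members, the 5 highest by length-scaled level and the 7 pairs, and other lists give up to 4 called genes by smallest adjusted p. Alternatives were scaling, filters, DESeq2 1.42.0, limma-voom (limma 3.58.1), robust dispersions, sex, left-out libraries, males only, no mitochondrially encoded genes and a threshold of 0.01.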

Additional observations from a re-analysis of the deposited data

Results flagged for a closer look

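Of 80 sets of 4 libraries checked, 7 held 1 library far from the other 3, and chance gives about 1 in 20. Hspd1 and Tomm5 were high in cKO replicate 4, at 396 and 63.1 CPM, against 331 to 340.0 and 44.8 to 47.2 CPM in the other cKO libraries. Timm17b was low in cKO replicate 3, at 15.2 CPM against 17.2 to 17.6 CPM, and the log2 ratio of Hspe1 over Hspd1 was high there, at -2.24 against -2.48 to -2.44. Timm10 and Pmpcb were low in control replicate 1, at 17.0 and 148 CPM, against 27.2 to 28.6 and 182 to 183 CPM in the other controls. Tomm22 was high in control replicate 2, at 65.7 CPM against 52.0 to 52.8 CPM.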

How the results depend on the processing

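The direction of each of the 5 called genes held in all 19 alternative fits, and no called value changed sign. Over the 32 genes, 36 of 608 alternative values lost a call and 7 gained one. Only the 5 called genes could lose a call. Of the 19 alternative fits, Timm44 kept its call in 19, Grpel1 and Timm22 in 11, and Tomm70a and Hspe1 in 9. Members that fell numbered 2 with upper-quartile factors, and 1 with total counts only, in males only and at an adjusted p under 0.01. Members that rose numbered 2 with total counts only, and 0 in males only and at an adjusted p under 0.01. All genes gave 808 that rose and 817 that fell at an adjusted p under 0.01, and 1021 that fell with total counts only. Leaving out 1 library gave 1 to 5 members that fell, 0 to 1 that rose and a median log2 fold change of -0.16 to -0.08, while total counts only gave a median of -0.02. The same range was 1129 to 1458 for all genes that rose, 1093 to 1418 for those that fell, -2.50 to -2.22 for Rbpms and 0.52 to 0.65 for the log2 ratio of Grpel2 over Grpel1. The cause of these differences was not tested. With 3 males per group the exact pair test cannot go below 0.1. No paired analysis was possible because the labels give no replicate numbers shared between genotypes. The median 95% interval of a member's change reached 0.21 on the log2 scale to either side, so a gene that missed the threshold may still differ.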

Other observations

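Control libraries were more spread than cKO libraries for most import and folding genes. The coefficient of variation was larger in controls for 25 of 32 genes (78.1%), against 62.9% of all tested genes, with medians of 8.03% in cKO libraries and 11.3% in control libraries over the 32. The cause was not tested.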
